A study of Arabidopsis thaliana with 32 samples.

Results

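The genes described here are 60 Arabidopsis thaliana genes for proteins of the large (60S) subunit of the cytosolic ribosome, followed through 8 comparisons of root messenger RNA. They were chosen by identifier, as a list of gene IDs matched to each line of the authors' deposited tables, alone or inside a line that joins several genes. The list was drawn up with the q-value calls and fold changes of these tables known, so the number and direction of members called in each table are a description and carry no test. Of the 60 members, 47 stood in at least 1 of the 8 tables and 13 stood in none, among 5162 genes named in any table. The annotation gives 58 of the 60 a ribosomal protein product. It names the other two, AT1G66580 and AT3G49010, by other properties, but their coding sequences were 88.0% and 86.3% identical to the nearest L10 and L13 paralogs.

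The cytosolic ribosome joins a small subunit, which decodes the messenger, to a large subunit, which forms the peptide bond and passes the growing chain out through a tunnel. The large subunit holds ribosomal RNA and a set of proteins, most of them in a single copy, and in Arabidopsis nearly every one of those proteins is encoded by a family of paralogous genes. Ribosomal protein messengers are among the most abundant of dividing and growing cells, are made together in proportion to growth, and in roots are highest toward the tip. The proteins are named below by their older plant names (L3, L4 and so on).

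The roots came from seedlings of 2 natural accessions, Col-0 and WS, with no transgene or mutation named in the labels, grown on upright plates of solid MS medium under LED light. Flight (FLT) seedlings germinated and grew in a plant growth unit aboard the International Space Station, and ground control (GC) seedlings grew in the same kind of unit in a chamber that repeated the station's temperature, CO2 and light 48 h later. The groups were FLT 8 d, GC 8 d, FLT 4 d and GC 4 d in each accession, each of 4 biological replicates, 32 libraries in all. Seedlings of every group were fixed whole in RNAlater in Kennedy fixation tubes, stored frozen, and dissected afterwards. A replicate pooled 2 to 3 roots at 8 d and 5 to 8 roots at 4 d, so the ages differ in how many plants a replicate averages. Library preparation started from 10 ng of RNA and copied messengers at full length, without marking their strand.

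Each of the authors' deposited tables lists only the loci that they called different at a q-value of 0.05 or less, with 1 pooled level per group in FPKM, a level scaled for transcript length and sequencing depth. Values of single libraries are not in these tables, so the spread between replicates is seen only through the deposited test statistic, and depth is unknown. The value after ± is the standard error that this statistic implies, with 4 replicates per group. Changes are on the log2 scale, FLT over GC or 8 d over 4 d. A member that is not listed is said not to have been called, which does not show that its level was unchanged.

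The promoters of the members share motifs with those of other ribosomal protein genes. In a window from 250 bases before to 50 bases after each gene's annotated transcript start in the TAIR10.1 reference, both strands were searched for the telo-box AAACCCTAA and for site II elements, TGGGCC or TGGGCT, which are known from promoters of ribosomal protein genes and other growth genes. The telo-box stood in 17 of 60 members (28.3%), against 3.81% of 27443 protein-coding genes. Site II letters stood in 51 of 60 members (85.0%), against 21.6% of all genes, and 41 of 60 (68.3%) held 2 or more separate matches, against 13.4%. The telo-box stood in 24.7% of 77 other large-subunit genes and 34.3% of 99 small-subunit genes. Site II letters stood in 80.5% and 70.7% of them, with 2 or more matches in 75.3% and 57.6%, so neither motif is particular to the members. Of the 13 unlisted members, 12 (92.3%) held site II letters, against 39 of the 47 listed members (83.0%). These are counts of letters in a window and say nothing of binding.

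The upstream bases of 4 members are printed because the results return to these genes. Each runs 5′ to 3′ for 250 bases and ends at the base before the annotated start. Capitals mark telo-box and site II letters on either strand.
AT2G37190, L12, chr2:15620157-15620406, minus strand: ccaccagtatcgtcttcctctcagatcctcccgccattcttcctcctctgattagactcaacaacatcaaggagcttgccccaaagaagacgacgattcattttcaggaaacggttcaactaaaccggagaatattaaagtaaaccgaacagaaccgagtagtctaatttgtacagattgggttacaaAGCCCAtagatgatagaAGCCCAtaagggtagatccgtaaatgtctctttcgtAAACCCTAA
AT1G43170, L3, chr1:16266303-16266552, plus strand: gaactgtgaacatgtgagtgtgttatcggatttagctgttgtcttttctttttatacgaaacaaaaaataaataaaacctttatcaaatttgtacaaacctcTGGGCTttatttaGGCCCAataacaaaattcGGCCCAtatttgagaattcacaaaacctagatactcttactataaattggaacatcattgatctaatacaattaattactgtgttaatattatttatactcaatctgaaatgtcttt
AT4G26230, L31, chr4:13285487-13285736, plus strand: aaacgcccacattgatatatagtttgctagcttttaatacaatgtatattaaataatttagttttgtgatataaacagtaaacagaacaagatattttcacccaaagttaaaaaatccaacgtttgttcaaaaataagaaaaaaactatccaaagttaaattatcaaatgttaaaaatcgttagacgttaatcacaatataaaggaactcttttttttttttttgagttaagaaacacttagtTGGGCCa
AT4G10450, L9, chr4:6464559-6464808, minus strand: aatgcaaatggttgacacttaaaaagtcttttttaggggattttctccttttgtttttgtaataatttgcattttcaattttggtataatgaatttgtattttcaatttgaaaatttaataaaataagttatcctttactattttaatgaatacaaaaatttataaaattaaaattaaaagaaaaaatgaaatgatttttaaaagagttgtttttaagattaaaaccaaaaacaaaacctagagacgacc
The L12 gene holds 1 telo-box at the very start and 2 site II matches, the L3 gene 3 site II matches and the L31 gene 1, with another just after its start. The L9 gene AT4G10450, the member listed in the most tables, holds neither motif in these 250 bases but has a telo-box just after its start, inside the window searched, and is among the 17 counted.

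Paralogs matter for what a level means, because a read from a stretch that 2 genes share cannot be assigned to either with certainty. Over the 60 members, the nearest paralog was 78.4% to 99.1% identical over the coding sequence, with a median of 85.7%, and 10 members had a paralog of 90% identity or more. The longest run of coding bases shared without a difference had a median of 34.5 and was 100 or more for 4 members. The extreme pair is that of the L9 genes AT1G33120 and AT1G33140, which stand near each other on chromosome 1 at 12010879 to 12012547 and 12023225 to 12024783 (TAIR10.1), share a run of 458 bases, and were joined by the authors with the neighbouring gene AT1G33160 in 1 line. The first 90 coding bases of the 3 L9 genes are shown, with capitals where a base differs from AT1G33120.
AT1G33120: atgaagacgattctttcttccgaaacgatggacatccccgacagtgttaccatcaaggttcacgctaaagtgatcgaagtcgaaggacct
AT1G33140: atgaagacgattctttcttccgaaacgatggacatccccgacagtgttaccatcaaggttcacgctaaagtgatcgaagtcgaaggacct
AT4G10450: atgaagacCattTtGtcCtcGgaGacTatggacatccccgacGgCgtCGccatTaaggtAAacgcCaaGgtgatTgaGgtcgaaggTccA
The pair has no difference in these bases and AT4G10450 has 20, so AT4G10450 can be measured apart from the pair while the pair cannot be split in this stretch. The coding sequences of the L11 genes AT2G42740 and AT3G58700 share a run of 113 bases, and their levels are likewise uncertain to the degree that reads fall there.

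In 4 day Col-0 roots, 29 of the 60 members were higher in flight than on the ground, and no member was lower. The changes were small, from 0.32 to 0.59 on the log2 scale with a median of 0.38, or 24.6% to 51.0% with a median of 30.3%, in the authors' deposited table. The called members came from 19 of the 27 protein families that hold a member and included every member gene of L6, L9, L12, L23a and L34. Across the whole table, 3.1% of 19612 loci tested were called higher. In bulk roots, fewer cells of a type and less messenger per cell cannot be told apart, here or in any later result.

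At the base of the ribosomal stalk, which recruits translation factors, all 3 L12 genes were called. AT2G37190 stood at 817 FPKM in FLT 4 d and 564 FPKM in GC 4 d Col-0 roots in the authors' deposited table, a log2 change of 0.53 ± 0.28 (q = 0.00185). AT5G60670 stood at 990 FPKM in FLT 4 d and 717 FPKM in GC 4 d in the authors' deposited table (0.47 ± 0.22, q = 0.00185), and AT3G53430 at 824 FPKM in FLT 4 d and 633 FPKM in GC 4 d (0.38 ± 0.22, q = 0.00913). The stalk anchor gene P0, AT3G09200, had the smallest change of the 29 in the authors' deposited table, 0.32 ± 0.22, at 1085 FPKM in FLT 4 d and 871 FPKM in GC 4 d (q = 0.0471). Its paralog AT3G11250 was not called in any table.

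Of the proteins that carry the 5S ribosomal RNA into the subunit, L11 and L5, 1 gene each was called. The L11 gene AT2G42740 stood at 316 FPKM in flight and 220 FPKM on the ground in the authors' deposited table, a change of 0.52 ± 0.24 (q = 0.00185). The L5 gene AT5G39740 stood at 1236 FPKM in flight and 979 FPKM on the ground in the authors' deposited table, a change of 0.34 ± 0.22 (q = 0.0351). Its paralog AT3G25520, known from leaf development as PIGGYBACK3, was listed in no table.

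Around the mouth of the exit tunnel, where the growing chain meets its chaperones and the signal recognition particle, L23a, L35, L31 and L19 were called. The L31 gene AT4G26230 stood at 891 FPKM in flight and 626 FPKM on the ground in the authors' deposited table, a change of 0.51 ± 0.23 (q = 0.00185). The L23a gene AT2G39460 had the highest level of all called members in this comparison, 2861 FPKM in flight and 2230 FPKM on the ground in the authors' deposited table, and changed by 0.36 ± 0.23. The L19 gene AT3G16780, one of the lowest at 233 FPKM in flight and 173 FPKM on the ground in the authors' deposited table, changed by 0.43 ± 0.23. Among the called members, the change was larger at low level. The 5 with the lowest flight levels, 211 to 468 FPKM in the authors' deposited table, changed by 0.40 to 0.59. The 6 with the highest, 1236 to 2861 FPKM, changed by 0.33 to 0.37. The implied errors were 0.22 to 0.32 for those 5 and 0.22 to 0.23 for those 6. Of those 5, AT3G13580 held the error of 0.32, and the next largest was 0.24, for AT2G42740. A larger error takes a larger change for a call. The part of calling in this trend was not tested.

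The largest change belonged to an L7 gene, AT3G13580, which had the lowest level of the 29. It stood at 211 FPKM in flight and 140 FPKM on the ground in the authors' deposited table, a change of 0.59 ± 0.32 (q = 0.00185). The other called L7 gene, AT2G44120, stood at 700 FPKM in FLT 4 d and 529 FPKM in GC 4 d in the authors' deposited table (0.41 ± 0.22, q = 0.00699). Among the remaining structural proteins the L14 gene AT2G20450 changed by 0.52 ± 0.22 and the L13a gene AT5G48760 by 0.47 ± 0.23 in the authors' deposited table. At the small end, next to P0, stood the L34 gene AT1G69620 with 0.33 ± 0.22 at 1732 FPKM in FLT 4 d and 1378 FPKM in GC 4 d in the authors' deposited table (q = 0.0344). The L9 pair of AT1G33120 and AT1G33140 shared 1 value, 1139 FPKM in FLT 4 d and 888 FPKM in GC 4 d in the authors' deposited table, a change of 0.36 ± 0.22, and the separable L9 gene AT4G10450 stood at 607 FPKM in FLT 4 d and 461 FPKM in GC 4 d (0.40 ± 0.22).

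**Figure D1:**
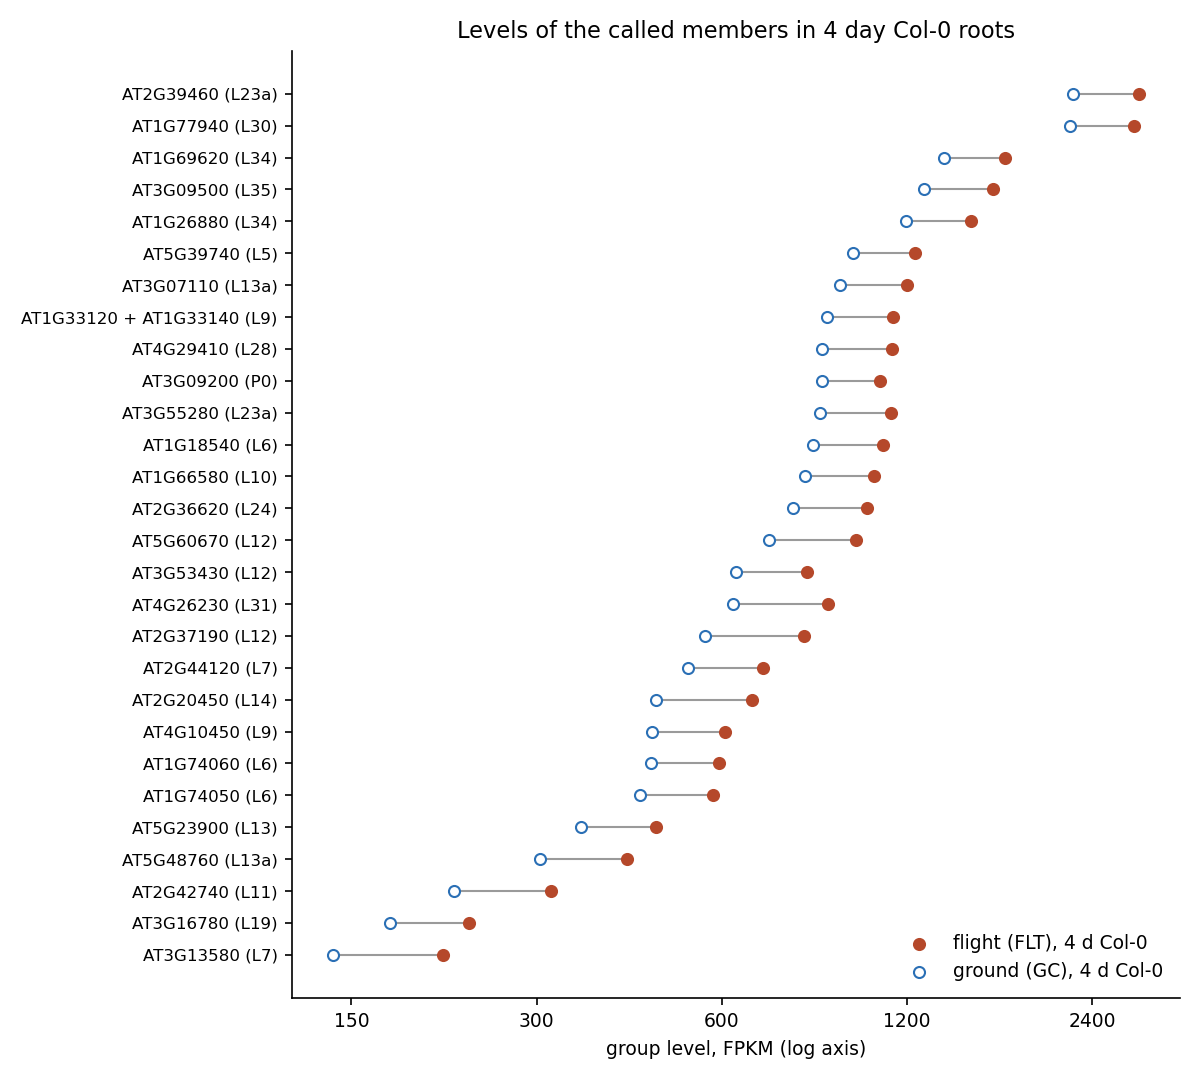
Group levels in FPKM on a log axis of the 29 members called in 4 day Col-0 roots, with flight filled and ground open, in 28 rows because the L9 pair AT1G33120 and AT1G33140 shares 1 line of the table. In every row the flight level lies to the right of the ground level, from a log2 distance of 0.59 at 211 FPKM in flight and 140 FPKM on the ground for AT3G13580 to one of 0.36 at 2861 FPKM in flight and 2230 FPKM on the ground for AT2G39460.

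The errors limit what a single gene shows here. Cuffdiff takes its p-value from simulation. Of the 29 members, 5 had a test statistic of 1.96 or more, the size at which an interval of 1.96 standard errors leaves out 0. Of all 1414 called loci, 592 reached that size in either direction, or 3.02% of all loci tested. The smallest p-value that the authors' deposited table holds, 5e-05, is shared by 7 of the 29. The median of all called loci of the table was -0.46, with 608 loci higher and 806 lower. Centred on it, the median of the 29 was 0.84. As that table median lies below 0, all 29 had to stay above 0.

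Transcript length moved with direction in this comparison, and its part in the result was not tested. Length is that of the longest annotated transcript of a gene, which need not be the one measured. Among called genes outside the cytosolic ribosomal protein lists, 78.0% of 91 with transcripts under 800 nt were higher in flight, 53.0% of 330 from 800 to under 1300 nt, and 28.9% of 817 of 1300 nt or more. The members called on lines of their own had 3 transcripts in the first class, 15 in the second and 9 in the third, all higher. Of the genes outside those lists at a level of 200 FPKM or above, 31 of 37 were higher in the shortest class and 32 of 78 in the middle class. In the longest class 12 of 75 were higher, beside the 9 members. Members with long annotated transcripts included the L7 gene AT3G13580 at 1587 nt, the L6 gene AT1G74060 at 1656 nt and P0 at 1460 nt.

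**Figure D2:**
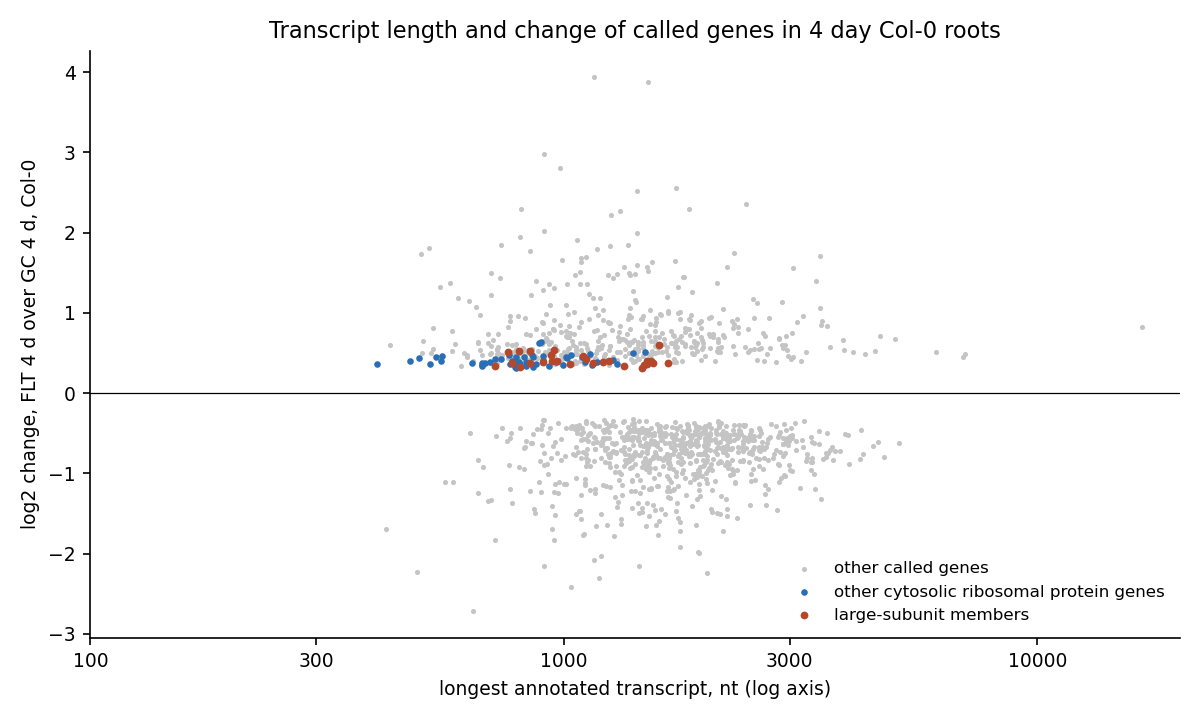
The log2 change, FLT 4 d over GC 4 d in Col-0 roots, of every called gene with a line of its own, against the length in nt of its longest annotated transcript on a log axis. The 27 members (red) and other cytosolic ribosomal protein genes (blue) form a narrow band above 0 at all of their lengths, while other called genes (grey) are mostly higher when short, 78.0% under 800 nt, and mostly lower when long, 28.9% higher at 1300 nt or more.

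In 4 day WS roots, no member was called for flight against ground. The authors' deposited table for that comparison was short, with 128 of 17899 loci tested called in either direction (0.715%). No fold change is therefore known for any member there, and whether the Col-0 and WS changes differ was not tested.

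In 8 day Col-0 roots, 2 of 60 members were called, both higher in flight, against 1.26% of 20035 loci called higher. The L9 gene AT4G10450 (chromosome 4, 6462953 to 6464555 in the TAIR10 positions of the file) stood at 516 FPKM in FLT 8 d and 435 FPKM in GC 8 d in the authors' deposited table, a change of 0.25 ± 0.15 (q = 0.0252). The L7 gene AT3G13580 stood at 202 FPKM in FLT 8 d and 156 FPKM in GC 8 d in the authors' deposited table, a change of 0.37 ± 0.23 (q = 0.0423). Both were also called higher at 4 d, in libraries that the 8 d table does not use. The 4 d change exceeded the 8 d change by 0.15 ± 0.27 for AT4G10450 and by 0.22 ± 0.39 for AT3G13580, each less than its own error, and the difference was not tested further.

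In 8 day WS roots, 2 of 60 members were called, in opposite directions, against 5.11% of 17365 loci called in either direction. The L30 gene AT3G18740, which encodes a protein at the bridge between the subunits, stood at 3258 FPKM in FLT 8 d and 4319 FPKM in GC 8 d in the authors' deposited table, a change of -0.41 ± 0.22 (q = 0.00463). The L19 gene AT4G02230, whose protein also reaches the subunit interface, stood at 290 FPKM in FLT 8 d and 228 FPKM in GC 8 d in the authors' deposited table, a change of 0.35 ± 0.19 (q = 0.011). Neither was called for flight in Col-0 at either age.

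The age comparison in flight gave the largest count. In Col-0 roots grown in flight, 31 of 60 members were lower at 8 d than at 4 d and none was higher, from -0.44 to -0.29 with a median of -0.33 in the authors' deposited table, against 3.45% of 20007 loci called lower. They came from 20 of the 27 families. Of the 31, 6 had a test statistic of 1.96 or more in size. Of all 1357 called loci, 689 reached that size, or 3.44% of all loci tested. The median of all called loci was -0.29, with 666 loci higher and 691 lower. Centred on it, the median of the 31 was -0.04, with 1 member above 0 and 30 below.

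Near the peptidyl transferase centre and along the tunnel, members for L8, L3 and L4 were called. None of these members had been called for flight at 4 d, though an L3 gene outside the list, AT1G61580, had. The L8 gene AT4G36130 stood at 761 FPKM in FLT 8 d and 987 FPKM in FLT 4 d in the authors' deposited table, a change of -0.38 ± 0.22 (q = 0.0144), on a locus that the authors' assembly drew at 74833 bases, chromosome 4 from 17059824 to 17134656 in the TAIR10 positions of the file. The other L8 gene, AT2G18020, stood at 1571 FPKM in FLT 8 d and 2019 FPKM in FLT 4 d in the authors' deposited table (-0.36 ± 0.20). The single member for L3, AT1G43170, stood at 741 FPKM in FLT 8 d and 941 FPKM in FLT 4 d in the authors' deposited table (-0.34 ± 0.19, q = 0.0135), and the L4 gene AT3G09630 at 289 FPKM in FLT 8 d and 366 FPKM in FLT 4 d (-0.34 ± 0.19, q = 0.00562). The L10 genes AT1G66580 and AT1G14320, the second known as SAC52, fell by 0.37 and 0.32 in the authors' deposited table. Of the 31 called members, 8 lay on loci drawn at over 10 kb, among them AT4G36130, AT2G18020, AT1G43170 and AT1G14320.

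The largest decreases were of L30, L11, L18 and L15 genes. AT3G18740 for L30 stood at 2388 FPKM in FLT 8 d and 3246 FPKM in FLT 4 d in the authors' deposited table, a change of -0.44 ± 0.19 (q = 0.00174). The L11 gene AT4G18730 stood at 1670 FPKM in FLT 8 d and 2227 FPKM in FLT 4 d in the authors' deposited table (-0.42 ± 0.19, q = 0.00446). AT3G05590 for L18 stood at 1552 FPKM in FLT 8 d and 2044 FPKM in FLT 4 d in the authors' deposited table (-0.40 ± 0.19), and AT4G16720 for L15 at 1557 FPKM in FLT 8 d and 2043 FPKM in FLT 4 d (-0.39 ± 0.19). Of the stalk genes 1 was called, the L12 gene AT3G53430, at 659 FPKM in FLT 8 d and 854 FPKM in FLT 4 d in the authors' deposited table (-0.37 ± 0.19). The smallest changes were of the adjacent L6 genes AT1G74060 and AT1G74050, both -0.29 ± 0.19 in the authors' deposited table, at 504 FPKM in FLT 8 d and 615 FPKM in FLT 4 d and 493 FPKM in FLT 8 d and 601 FPKM in FLT 4 d.

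The flight comparison at 4 d and this age comparison use the same FLT 4 d Col-0 libraries, so their calls are not independent, and 18 members stand in both. Their values are given side by side. For those 18, the flight change at 4 d ran from 0.33 to 0.52 with a median of 0.38, and the age change in flight from -0.37 to -0.29 with a median of -0.32. The L30 gene AT1G77940 stood at 2265 FPKM in FLT 8 d and 2901 FPKM in FLT 4 d in the authors' deposited table for age, and at 2800 FPKM in FLT 4 d and 2208 FPKM in GC 4 d in that for flight. The 2 tables were normalised separately, and the FLT 4 d levels of shared genes differed between them by a median log2 ratio of -0.05. For AT4G10450 all 4 Col-0 groups have a level, 504 or 516 FPKM in FLT 8 d, 629 or 607 FPKM in FLT 4 d, 435 FPKM in GC 8 d and 461 FPKM in GC 4 d, with a pair of values where 2 of the authors' deposited tables hold the group. The highest of the 4 groups for that gene was FLT 4 d. The L7 gene AT3G13580 also has all 4, and was not called for age in flight. It stood at 211 FPKM in FLT 4 d, 202 FPKM in FLT 8 d, 156 FPKM in GC 8 d and 140 FPKM in GC 4 d. The L3 gene AT1G43170 and the L4 gene AT3G09630 have all 4 from the Col-0 age tables, with FLT 4 d the highest.

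**Figure D3:**
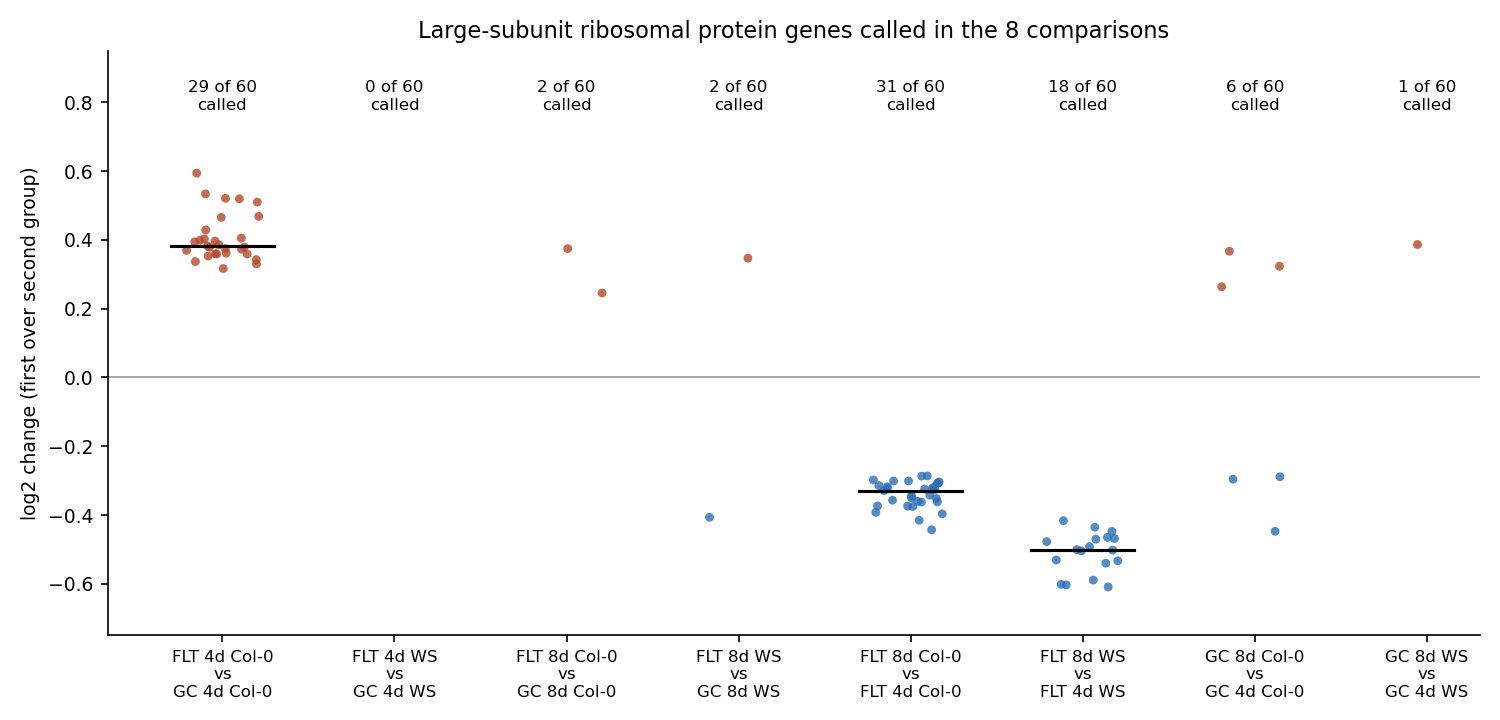
The log2 change of each called member, first over second group, in the 8 comparisons, with higher in red, lower in blue and a bar at the median where more than 6 were called. The 29 members called for flight in 4 day Col-0 roots all lie between 0.32 and 0.59, the 31 and 18 called for age in flight all lie below 0, and the other comparisons hold 0 to 6 members.

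In WS roots grown in flight, 18 of 60 members were lower at 8 d than at 4 d and none was higher, from -0.61 to -0.42 with a median of -0.50 in the authors' deposited table, against 3.42% of 17695 loci called lower. They came from 15 families. Of all 1075 called loci, 479 had a test statistic of 1.96 or more in size, or 2.71% of all loci tested. Of the 18 members, 2 reached that size. Those 2 were the L9 gene AT4G10450 and the L3 gene AT1G43170. The median of all called loci was -0.50, with 469 loci higher and 606 lower. Centred on it, the median of the 18 was 0.0001, with 9 members above 0 and 9 below.

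AT4G10450 stood at 384 FPKM in FLT 8 d and 584 FPKM in FLT 4 d WS roots in the authors' deposited table, a change of -0.60 ± 0.27 (q = 0.00218). AT1G43170 for L3 stood at 594 FPKM in FLT 8 d and 902 FPKM in FLT 4 d in the authors' deposited table (-0.60 ± 0.31, q = 0.0055). Both L4 genes were called, AT3G09630 at 208 FPKM in FLT 8 d and 294 FPKM in FLT 4 d and AT5G02870 at 432 FPKM in FLT 8 d and 597 FPKM in FLT 4 d in the authors' deposited table, with changes of -0.50 ± 0.27 and -0.47 ± 0.28. L17, whose protein narrows the tunnel together with L4, was called through AT1G67430 at 1725 FPKM in FLT 8 d and 2390 FPKM in FLT 4 d in the authors' deposited table (-0.47 ± 0.31, q = 0.0325). The L8 gene AT4G36130 had the largest change, -0.61 ± 0.41, at 557 FPKM in FLT 8 d and 850 FPKM in FLT 4 d in the authors' deposited table, and also the widest error. Its locus was drawn at 126454 bases, and 3 of the 18 called members, among them AT1G43170, lay on loci over 10 kb.

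Both L30 genes called in Col-0 were called in WS as well. AT1G77940 stood at 2361 FPKM in FLT 8 d and 3552 FPKM in FLT 4 d in the authors' deposited table (-0.59 ± 0.32, q = 0.00681), and AT3G18740 at 2973 FPKM in FLT 8 d and 4216 FPKM in FLT 4 d (-0.50 ± 0.32, q = 0.0284). The L32 gene AT4G18100 stood at 2487 FPKM in FLT 8 d and 3617 FPKM in FLT 4 d in the authors' deposited table (-0.54 ± 0.32), and the L15 gene AT4G17390 at 1652 FPKM in FLT 8 d and 2390 FPKM in FLT 4 d (-0.53 ± 0.33). The smallest changes were of the L6 gene AT1G18540, -0.42 ± 0.28, and the L10 gene AT1G66580, -0.44 ± 0.28, in the authors' deposited table. The L35 gene AT3G09500 shared its line with AT3G09505 in WS, where the line stood at 1244 FPKM in FLT 8 d and 1762 FPKM in FLT 4 d in the authors' deposited table (-0.50 ± 0.30).

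The age tables of the accessions in flight share no library. Of the members called lower, 12 stood in both, which is 38.7% of the 31 in Col-0 and 66.7% of the 18 in WS. Of all loci tested, 3.45% in Col-0 and 3.42% in WS were called lower. How many of those stood in both was not counted, so the overlap cannot be called particular to the members. All 12 had a smaller change in Col-0, with the difference, Col-0 minus WS, running from 0.06 to 0.28 and a median of 0.17. The limits for a call also differed, since the called members had a median implied error of 0.19 in Col-0 and 0.30 in WS, and their smallest change was -0.29 in Col-0 and -0.42 in WS. Being called in both tables thus itself favours a larger change in WS. No difference exceeded its own standard error, and for AT4G10450, the largest, it was 0.28 ± 0.33. The change in Col-0 can therefore not be told from that in WS gene by gene.

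**Figure D4:**
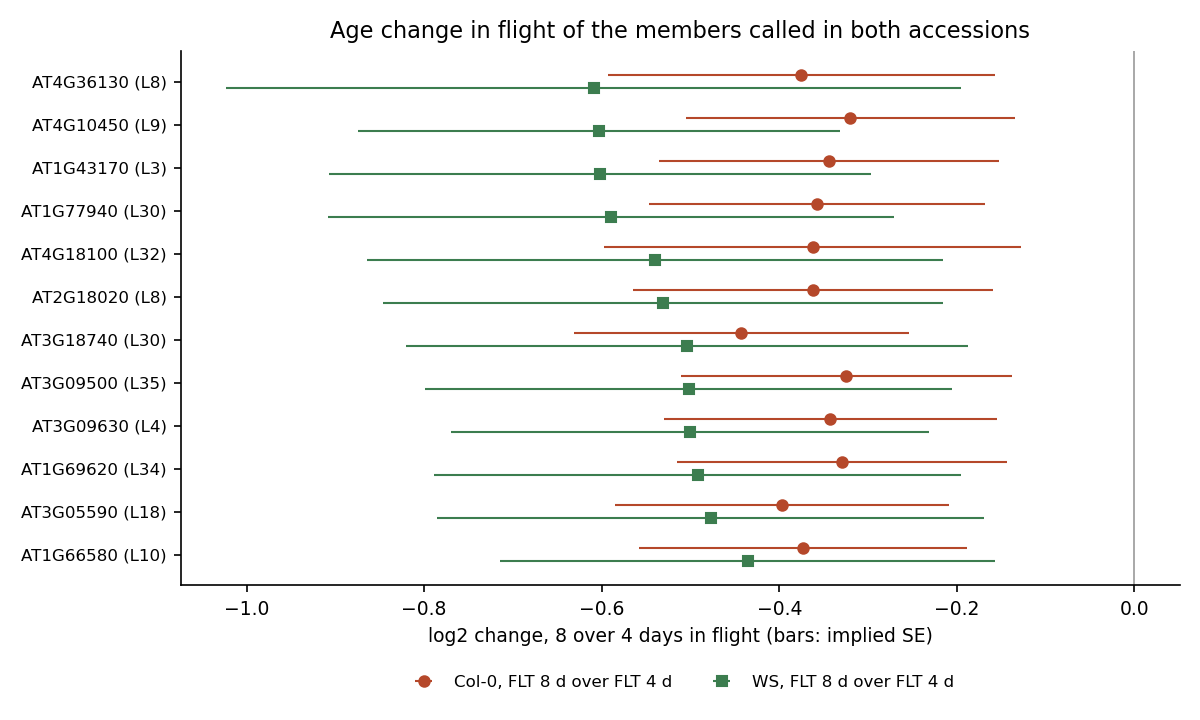
The log2 change, 8 d over 4 d in flight, of the 12 members called in both accessions, with Col-0 as red circles, WS as green squares and bars for the implied standard error (4 replicates per group). Every point lies below 0 and each WS point lies left of its Col-0 point, by 0.06 to 0.28, with error bars that overlap throughout, where a call in WS took a larger change than a call in Col-0.

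With age on the ground in Col-0, 6 of 60 members were called, 3 higher and 3 lower at 8 d, against 11.2% of 19905 loci called in either direction, so their share was near that of all loci. The L3 gene AT1G43170 stood at 641 FPKM in GC 8 d and 875 FPKM in GC 4 d in the authors' deposited table, a change of -0.45 ± 0.18 (q = 0.00107). Both L4 genes were lower, AT5G02870 at 518 FPKM in GC 8 d and 637 FPKM in GC 4 d and AT3G09630 at 251 FPKM in GC 8 d and 307 FPKM in GC 4 d in the authors' deposited table, with changes of -0.30 ± 0.18 and -0.29 ± 0.19. Higher at 8 d were the L31 gene AT4G26230, at 825 FPKM in GC 8 d and 639 FPKM in GC 4 d in the authors' deposited table (0.37 ± 0.19, q = 0.0056), the L13a gene AT5G48760 (0.32 ± 0.20) and the L12 gene AT5G60670 (0.26 ± 0.19). The 3 lower members have transcripts of 1300 nt or more and the 3 higher ones are shorter. Among other called genes, 57.7% of 1357 at 1300 nt or more were lower and 72.5% of 149 under 800 nt were higher, and the part of length was not tested.

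In ground WS roots 1 of 60 members was called, against 2.85% of 18017 loci called higher. It was again the L31 gene AT4G26230, at 1038 FPKM in GC 8 d and 793 FPKM in GC 4 d in the authors' deposited table, a change of 0.39 ± 0.25 (q = 0.0376). The ground changes of this gene in Col-0 and WS share no library and differed by -0.02 ± 0.32. AT4G26230 was not called for age in flight in either accession.

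For the L3 and L4 genes the age change could be set beside its ground value in Col-0, from tables that share no library. AT1G43170 changed by -0.34 ± 0.19 in flight and -0.45 ± 0.18 on the ground in the authors' deposited tables, a difference of 0.10 ± 0.27. AT3G09630 changed by -0.34 ± 0.19 in flight and -0.29 ± 0.19 on the ground in the authors' deposited tables, a difference of -0.05 ± 0.27. The other 29 members called for age in flight in Col-0 were not called on the ground, where 5.54% of all loci tested were called lower. How many of all loci lower in flight were also called on the ground was not counted, so this is not a trait particular to the members. Since their ground values are not listed, whether the age change differed between flight and ground was not tested for them.

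The remaining genes of the ribosome were followed by lists. For flight in 4 day Col-0 roots, 3.1% of all loci tested were called higher. Of 77 other large-subunit genes, 26 were higher and 0 lower in FLT 4 d against GC 4 d Col-0 roots, with a median of 0.39 among those called. Named by size in the authors' deposited table, these included a second L3 gene, AT1G61580, at 0.51 ± 0.24, an L18a gene, AT3G14600, at 0.47 ± 0.22, and the acidic stalk protein gene P2, AT3G44590, at 0.47 ± 0.24. Of 99 small-subunit genes, 27 were higher and 0 lower, with a median of 0.40, and of 24 ribosome biogenesis genes 6 were higher and 0 lower, with a median of 0.52. The biogenesis genes named in the authors' deposited table included SMO4 (AT2G40430) at 0.54 ± 0.27, NOP10 (AT2G20490) at 0.52 ± 0.23 and NOP58-1 (AT5G27120) at 0.51 ± 0.22. The pseudouridine synthase gene CBF5 (AT3G57150) shares its line with AT3G57170, so the value of 0.63 ± 0.40 cannot be assigned to either. None of 12 genes for translation elongation and TOR signalling was called for flight in 4 day Col-0 roots.

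With age in flight, the called genes of these lists were lower. Of all loci tested, 3.45% were called lower in Col-0 and 3.42% in WS. In Col-0, 30 of the 77 other large-subunit genes and 40 of the 99 small-subunit genes were lower at 8 d and none was higher, with medians of -0.33 and -0.38. In WS, 23 and 43 were lower and none was higher, with medians of -0.54 and -0.56. Of the 24 biogenesis genes, 2 were lower in Col-0 and 5 in WS. Of the elongation list, 2 genes were lower with age in flight and 5 on the ground in Col-0. In WS, 1 was lower in flight and 2 on the ground. With age on the ground, 5.54% of all loci tested were called lower in Col-0 and 3.27% in WS, and 5.69% and 2.85% higher. Of the 77 other large-subunit genes, 6 in Col-0 and 2 in WS were higher on the ground and 0 were lower. Of the 99 small-subunit genes, 2 were higher and 4 lower in Col-0, and 1 was higher and 7 lower in WS. Of the 24 biogenesis genes, 2 were lower in Col-0, and 1 was higher and 2 were lower in WS. In ground Col-0 roots the elongation factor gene EF1A4 (AT5G60390) changed by -0.59 ± 0.19 in the authors' deposited table. The nucleolar protein gene NUC-L1 (AT1G48920) was lower with age in flight by -0.38 ± 0.19 in Col-0 and -0.74 ± 0.28 in WS, and on the ground in Col-0 by -0.45 ± 0.19, in the authors' deposited tables.

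**Figure D5:**
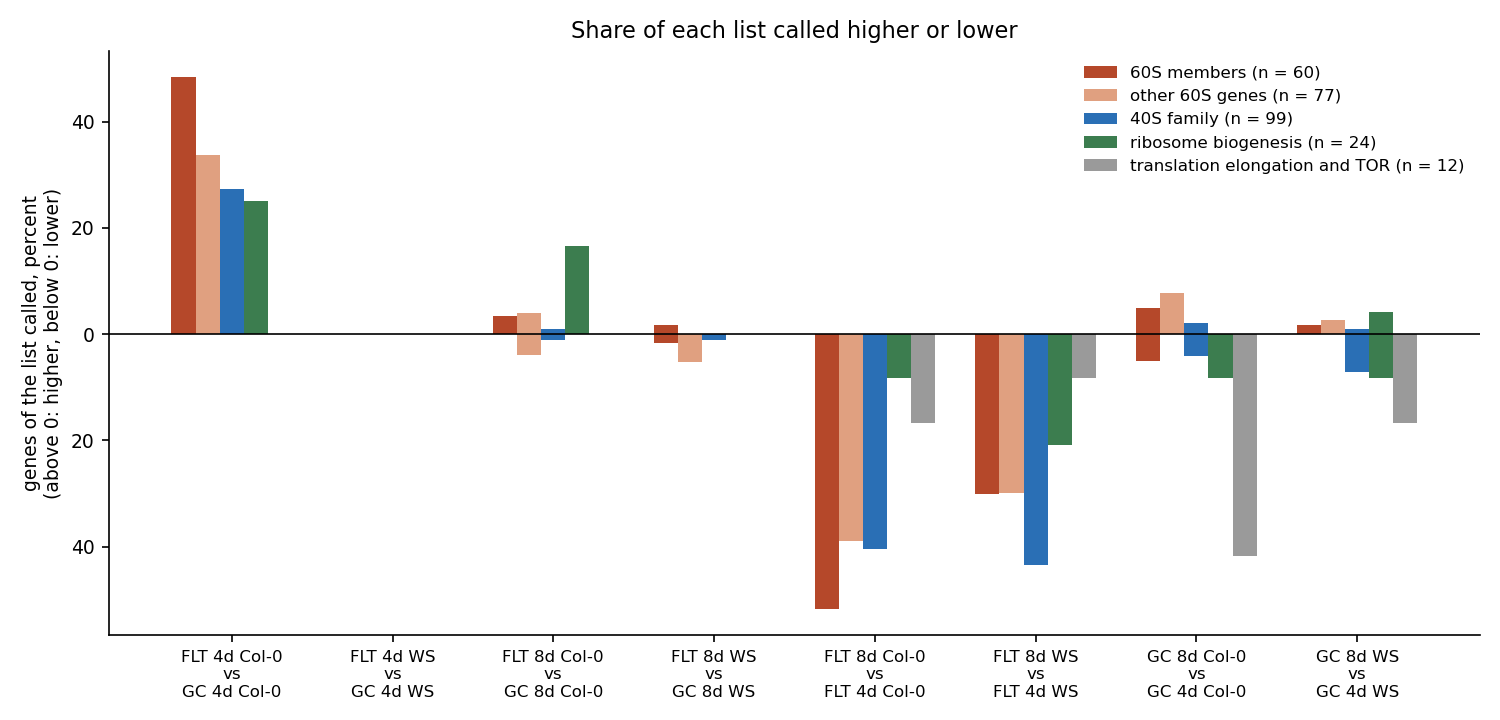
Percent of the genes of each list that were called higher (above 0) or lower (below 0) in the 8 comparisons, for the 60 members, 77 other large-subunit genes, 99 small-subunit genes, 24 biogenesis genes and 12 elongation and TOR genes. The ribosomal lists are all above 0 for flight in 4 day Col-0 roots (29 of 60 members) and all below 0 for age in flight (31 and 18 of 60), while the elongation list has its largest share, 5 of 12, for age in ground Col-0 roots.

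Some markers of other cell types were called in the same comparisons as members, and their part in the results was not tested. Of 15 markers of dividing cells and the root tip, 1 was called for flight in 4 day Col-0 roots, the quiescent-centre regulator WOX5 (AT3G11260), at 25.7 FPKM in FLT 4 d and 15.4 FPKM in GC 4 d in the authors' deposited table (0.73 ± 0.42). With age in flight in Col-0, WOX5 was again the only one of the 15 called. It stood at 8.46 FPKM in FLT 8 d and 26.6 FPKM in FLT 4 d in the authors' deposited table (-1.65 ± 0.43). Each of these counts was 6.67% of the 15, near the 7.21% and 6.78% of all loci tested that were called in either direction. None of the 15 was called for age in flight in WS, where 18 members were lower. With age on the ground, where 6 and 1 members were called, WOX5 was lower in Col-0 (-0.75 ± 0.46) and in WS (-0.95 ± 0.50), and the cell division kinase gene CDKB2;2 (AT1G20930) was higher in Col-0 (0.69 ± 0.49), in the authors' deposited tables. Of all loci tested, 11.2% in Col-0 and 6.13% in WS were called for age on the ground. None of the 15 was called in the other 3 comparisons of flight with ground. Of 16 markers of green tissue, 3 were lower for flight at 4 d and 6 at 8 d in Col-0, 5 were higher at 4 d and none was called at 8 d in WS, and 7 in Col-0 and 6 in WS were lower with age in flight. Among them RBCS1B (AT5G38430), a Rubisco small subunit gene, stood at 1.45 FPKM in FLT 8 d and 16.2 FPKM in FLT 4 d Col-0 roots in the authors' deposited table. On the ground, 4 green markers in Col-0 and 5 in WS were lower with age, in tables with 6 and 1 members called. Of all loci tested, 4.11% and 2.8% were called lower for flight at 4 d and 8 d in Col-0, and 0.352% higher at 4 d in WS. With age, 3.45% in Col-0 and 3.42% in WS were called lower in flight, and 5.54% and 3.27% on the ground. Summed levels of the marker lists cannot be given, because genes that were not called have no value.

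Level was compared with direction in the same way. Among called genes outside the ribosomal protein lists whose higher group reached 200 FPKM, 39.5% of 190 were higher for flight in 4 day Col-0 roots, against 38.9% of 1238 called genes outside those lists at any level, while all called members were higher. For age in flight, 69.7% of 165 genes of that level in Col-0 and 63.6% of 110 in WS were lower, against 47.3% and 50.4% at any level. For flight at 8 d, 88.4% of 129 in Col-0 and 90.7% of 140 in WS were lower, against 69.5% and 53.5% at any level, and there 3 of the 4 member calls were higher.

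The 13 members that stood in no table have no level here. They include the L7 gene AT2G01250, the L24 gene AT3G53020, known as SHORT VALVE1, the L5 gene AT3G25520, the P0 gene AT3G11250, the L10 gene AT1G26910 and the L17 gene AT1G27400, each with a listed paralog. The single L27a member, AT1G70600, was the only family without a listed member. Their coding lengths, 339 to 972 bases with a median of 621, were within those of the listed members, 339 to 1224 with a median of 585.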

How the data were processed

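Root RNA-seq of 8 groups of 4 libraries was used through 8 comparison tables, and the reads were not used here. Per the submitters' processing notes, the tools were STAR 2.5.1b, Trimmomatic 0.36, FastQC 0.11.2, Cuffdiff, Cufflinks and Picard, and the genome was TAIR10. Their settings and order: not given in the sources used here. The deposited FPKM values are the authors' pooled levels per group. The deposited log2 changes are ratios of those levels, and age tables were turned so that 8 d is over 4 d. The deposited test statistic, a score per locus, was used to derive the standard error as the size of the change divided by it. Each deposited p-value and q-value is the authors' Cuffdiff result, adjusted by them over all loci tested in a table. The number tested was recovered from p, rank and q, a step tested on simulated data. Since the tables hold 0 columns per sample, no model was refitted, and q-values measure only the spread between the replicates of a group. Depth is unknown.

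A member counted as called at a q of 0.05 or less. All 303 identifiers of the lists matched the reference. The members and lists were chosen with earlier results of these data known. Named genes were, per table, up to 6 called members by size of change and the 2 smallest, members in 3 or more tables, those on joined lines or beside listed paralogs, and up to 4 genes per other list. Other genes were named after their values were seen. Of 3316 single-gene Col-0 lines, 100% overlapped their gene in TAIR10.1, against 5.42% of 1955 WS lines, so positions are given for Col-0 only. Sequences are from RefSeq TAIR10.1. Coding sequences were aligned with Biopython 1.88, and lists, counts and figures were made with Python 3.11.15, pandas 2.3.3 and matplotlib 3.10.9. Length and level classes were set after the data were seen. Alternatives were a stricter q, a limit on size, joined or wide loci left out, a minimum level, centring, and a limit on the test statistic.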

Additional observations from a re-analysis of the deposited data

How the results depend on the processing

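Leaving out lines of several genes moved no member count by more than 1.5 times in any of the 8 tables. A limit of 5 FPKM could remove no called member, since the lowest stood at 202 FPKM in its higher group. At a q of 0.01 or less, 14 members stayed for flight at 4 d in Col-0, against 3.83% of loci tested, and 15 and 4 for age in flight in Col-0 and WS, against 4.09% and 3.29%. At that q, 0 and 1 members were left for flight at 8 d in Col-0 and WS, against 2.54% and 2.6% of loci, and 2 and 0 for age on the ground in Col-0 and WS, against 7.12% and 3.3%. With an absolute log2 change of 0.5 or more, 5 members were left for flight at 4 d in Col-0 and 10 for age in flight in WS, against 5.39% and 5.7% of loci. At that size 0 were left for age in flight in Col-0, against 4.89%, and 0 for flight at 8 d and for age on the ground, against 2.32% to 8.38%. With a test statistic of 1.96 or more, chosen after seeing the data, 5, 6 and 2 members were left for these 3 large comparisons, 1 for age on the ground in Col-0 and 0 elsewhere. Of all loci tested, 3.02%, 3.44% and 2.71% reached that size in the 3, 5.29% for age on the ground in Col-0, and 0.553% to 2.95% elsewhere. Centring on the median of all called loci gave a median of 0.84, against 0.38 uncentred, for flight at 4 d in Col-0, 0.72 against 0.31 for flight at 8 d in Col-0, -0.04 against -0.33 for age in flight in Col-0, -0.32 against -0.01 for age on the ground in Col-0, and 0.84 against 0.39 for age on the ground in WS. It turned the median of the called members for flight at 8 d in WS to 0.30, and that for age in flight in WS to 0.0001, against -0.50 without centring, with 9 members above and 9 below. That centring left 1 member above and 30 below for age in flight in Col-0. For age on the ground in Col-0, it left 2 above and 4 below. The median of all called loci depends on how many were called higher or lower, and is not a point of no change. Leaving out loci over 10 kb, also chosen after seeing the data, left 27 of 29 members for flight at 4 d in Col-0. For age in flight it left 23 of 31 in Col-0 and 15 of 18 in WS. The share of all loci was not counted at this limit. It turned the median for age on the ground in Col-0 to 0.26, since 1 of the 6 members, the L3 gene, lies on such a locus. No paired analysis was possible because the authors' deposited tables hold 1 pooled level per group and no value per library, and leaving out single replicates was not run for the same reason. Depth per library is unknown, so no limit of detection can be given for members that were not called.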

Other observations

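In 8 day Col-0 roots, 2 of 60 large-subunit members were called higher in flight, and 1.26% of all loci tested. Among the other gene groups of protein synthesis, 4 of 24 ribosome biogenesis genes were higher there. In the authors' deposited table these were PES (AT5G14520) at 0.39 ± 0.24, BOP1 (AT2G40360) at 0.38 ± 0.17, NOP58-1 (AT5G27120) at 0.32 ± 0.15 and NOP10 (AT2G20490) at 0.26 ± 0.16. Of these, PES and BOP1 are partners in the processing of large-subunit ribosomal RNA. With age in flight in WS, 5 of the 24 were lower in the authors' deposited table, against 3.42% of all loci tested. Among the 5 was WDR12 (AT5G15550), the third partner of PES and BOP1, at -0.86 ± 0.32. NOP56 (AT1G56110) shares its WS line with the elongation factor gene LOS1 (AT1G56070), so the value of -0.81 ± 0.41 in the authors' deposited table cannot be assigned to either.

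The large-subunit genes outside the list that were lower in flight in 8 day WS roots encode very small proteins. In the authors' deposited table, 2 L41 genes changed by -0.40 ± 0.19 (AT3G11120) and -0.34 ± 0.20 (AT3G56020), the L38 gene AT3G59540 by -0.33 ± 0.21 and the L39 gene AT2G25210 by -0.30 ± 0.19. Of called genes under 800 nt outside the ribosomal lists, 81.6% of 76 were lower in that comparison, and the part of length was not tested.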
